A study of Mus musculus with 23 samples.

Results

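The transcriptome described here is that of microglia isolated from the striatum of mice that had self-administered saline, read as levels of genes and as their spread between libraries. The Saline group holds 8 of the 23 libraries of the study, Saline 1 to 8, and was chosen by its group label alone, with no contrast against the methamphetamine groups. The animals were male C57BL/6J mice, 9 weeks old, with an intravenous catheter, and they worked on levers for infusions of 0.9% saline in 15 sessions of 2 hr, 1 a day. Cells were isolated right after the last session. No transgene, reporter or deletion is named for any group. The Maintenance group (8 libraries) had the same age, strain, sex and schedule with methamphetamine at 0.05 mg/kg per infusion, and the Abstinence group (7 libraries) then spent 21 days in the home cage without it. These other groups are read only for the spread of genes between their own libraries. The Saline mice were operated, trained and handled, so they stand for a trained control and not for untouched mice. The labels give all libraries a treatment of methamphetamine self-administration and a tissue named Neuronal, and the group label Saline was followed. How the cells were isolated is not given in the sources used here, and neither is the number of mice behind a library. The spread between libraries may therefore be partly technical.

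Microglia are the resident macrophages of the brain parenchyma. They depend on signalling through the receptor Csf1r, survey the tissue with motile processes, clear debris through lysosomes and keep a program of genes such as Tmem119 and P2ry12 that sets them apart from blood-derived myeloid cells. In the striatum they lie among dopamine-receptive projection neurons and bundles of myelinated axons.

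The 4 markers fixed for microglia were present at high levels in all 8 libraries. P2ry12, the ADP receptor that steers process movement, lay between 8149 CPM (Saline 5) and 11033 CPM (Saline 2), with a median of 9606. CPM is the usual counts-per-million value, with library totals scaled between the Saline libraries by TMM factors. Csf1r, the receptor for the survival factors Csf1 and Il34, ranged from 4429 CPM (Saline 8) to 6478 CPM (Saline 4) around a median of 5480. Cx3cr1, the fractalkine receptor, had 4266 CPM in Saline 8, a median of 5358 and 5786 CPM in Saline 3. Tmem119, a membrane protein used to tell microglia from other macrophages, went from 3282 CPM (Saline 7) through a median of 4260 to 5096 CPM (Saline 6). Their coefficients of variation (CV, SD over mean) were 10.3%, 14.0%, 10.9% and 16.1%. Genes of 1000 CPM or more had a median CV of 9.69% and an upper quartile of 12.5%, so Csf1r and Tmem119 varied more than most genes of like level. P2ry12 lies at chr3:59216271-59262985, Cx3cr1 at chr9:120048683-120068296 and Tmem119 at chr5:113793729-113800396 on GRCm38. The label of microglia thus had its markers in every library, whereas most markers of neurons were low: of 21 general neuronal markers 13 reached a mean of 1 CPM, and their sum was 79.7 ± 35.2 CPM (SD, n = 8). The labelled sex fitted 8 of 8 libraries, with counts from the Y-linked Ddx3y, Eif2s3y, Uty and Kdm5d and none from the X-inactivation transcript.

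Library totals ran from 55378997 (Saline 4) to 84640226 (Saline 7) counts, so counting error was a small part of the spread for most genes of at least 10 CPM. A count was found for 14991 to 16975 of the 35976 listed genes in a library, and 12278 genes reached a mean of 1 CPM, 7618 a mean of 10 CPM and 126 a mean of 1000 CPM. Another 15551 genes were at 0 in all 8. No columns were identical. Pearson correlations of log2 CPM over the 7618 genes were lowest for Saline 6 with 8 (0.932) and highest for Saline 2 with 3 (0.988), and libraries 1 to 4 had higher mean correlations with the rest (0.972 to 0.974) than libraries 5 to 8 (0.957 to 0.960). More than 2-fold apart were 433 genes (5.68%) in Saline 6 against 8 and 38 genes (0.499%) in Saline 2 against 3. Saline 5, 6 and 8 are also the ones that the second deposited table does not list. For many of the results that rest most on them, a value without Saline 6 or in Saline 1, 2, 3, 4 and 7 alone is given. Saline 7, with a mean correlation of 0.959, is kept in that set.

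The counts were concentrated in few genes. Between 246 (Saline 6) and 298 (Saline 8) genes held 50% of the counts of a library, and the 10 most abundant genes held 14.5 ± 0.507% (SD, n = 8). Cst3, which encodes the secreted cysteine protease inhibitor cystatin C, ranked 1 in every library: it had 41077 CPM in Saline 8, a median of 44605 and 46864 CPM in Saline 3, or 4.43 ± 0.152% of the counts. Ctss, the cysteine protease cathepsin S, ranked 3 in every library with 15995 ± 1163 CPM. Below them the order was less fixed. Ctsd, the aspartic protease cathepsin D (10065 ± 1261 CPM), and Lgmn, the asparaginyl protease legumain (10041 ± 898 CPM), differed by less than their spread and changed places between libraries. P2ry12 (9447 ± 976 CPM) and the complement genes C1qb (8776 ± 650 CPM) and C1qc (8147 ± 650 CPM) followed, at ranks 5 to 7, 6 to 8 and 8 to 9.

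**Figure D1:**
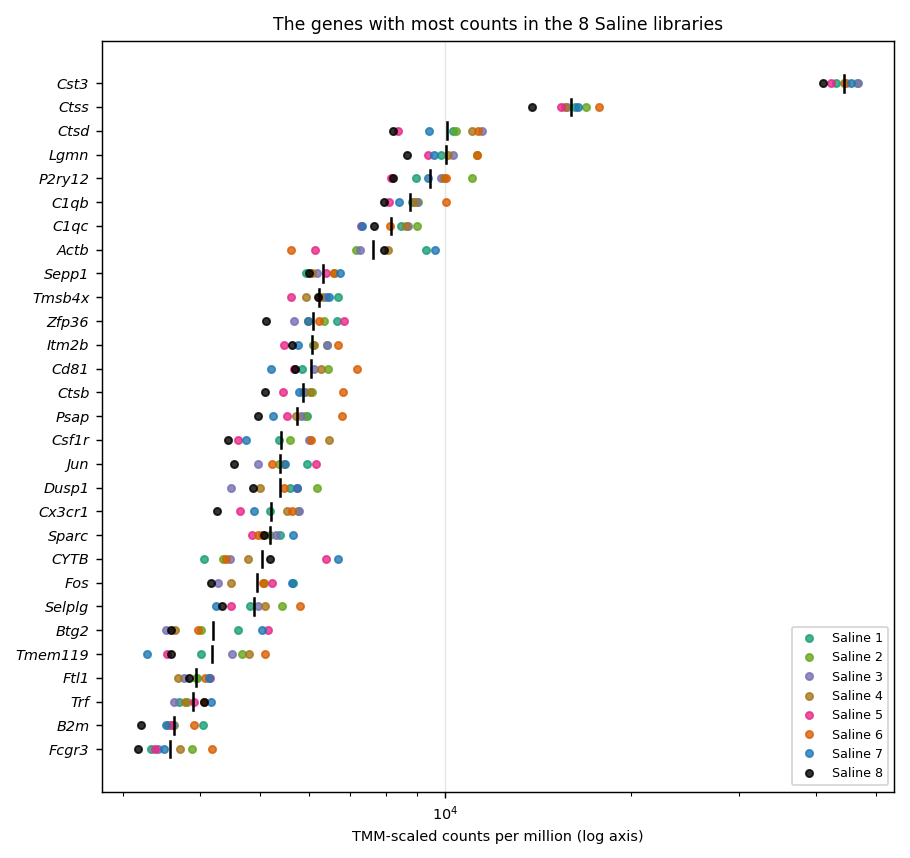
Each row is a gene, 29 of the 30 with the highest mean, the horizontal log axis gives TMM-scaled CPM, each coloured point is 1 of the 8 Saline libraries and the black bar is their mean. Cst3 lies apart at 41077 to 46864 CPM, while most lower genes overlap with their neighbours.

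The rest of the 30 genes with the most counts fall into a few kinds. Secreted or membrane proteins include Sepp1 (selenoprotein P, 6318 ± 310 CPM), Itm2b (6079 ± 430 CPM), the tetraspanin Cd81 (6060 ± 598 CPM), the matrix protein Sparc (5186 ± 256 CPM), the selectin ligand Selplg (4897 ± 542 CPM) and the iron carrier Trf (3888 ± 193 CPM). Lysosomal proteins include Ctsb (5883 ± 503 CPM) and the sphingolipid activator precursor Psap (5744 ± 545 CPM). Cytoskeletal genes were Actb (7643 ± 1398 CPM) and the actin-binding peptide Tmsb4x (6241 ± 334 CPM). Immediate early genes formed a block of their own: Zfp36, Jun, Dusp1, Fos and Btg2 were all among the 30. The list ends with the ferritin light chain Ftl1 (3939 ± 170 CPM), the class I light chain B2m (3629 ± 253 CPM) and the activating Fc receptor Fcgr3 (3567 ± 331 CPM). The spread differed within this list, from a CV of 4.32% for Ftl1 to 18.3% for Actb and 19.6% for the mitochondrial CYTB.

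Levels of different genes were compared per length, as TPM (counts over transcript length, scaled to the same sum in each library) over the genes that GENCODE M21 gives a length, which hold 98.0% of the counts. On this scale Cst3 was again first, at 104735 ± 3478 TPM, and 23 of the 30 genes stayed among the first 30. Short transcripts moved up: C1qa, the third chain of C1q, had 5993 ± 480 TPM and entered the first 30. The chemokine Ccl4 (5068 ± 828 TPM), the Fc receptor adaptor Fcer1g (4944 ± 116 TPM), the lipid receptor Trem2 (3880 ± 286 TPM) and its adaptor Tyrobp (3807 ± 319 TPM) also entered the first 30, with Pfn1 (3658 ± 194 TPM) and the ferritin heavy chain Fth1 (3533 ± 526 TPM). Per length, the C1q chains were unequal, with C1qb at 16371 ± 788 TPM and C1qc at 13750 ± 903 TPM, both above C1qa in all 8 libraries. Sepp1 and the other genes with no length were not placed on this scale.

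Because the ETS factor PU.1 (Spi1, 453 ± 47.6 CPM) is the lineage factor of macrophages and microglia, the promoters of the abundant genes were searched for its core GAGGAAGT, on either strand (ACTTCCTC on the other). Promoters are RefSeq windows on GRCm38.p6 from 250 bases before to 50 bases after a gene's start. Of the 22 homeostatic genes 16 had an entry, and 1 of them, Ctss, held the core. Among the 100 most abundant genes 72 had an entry and 7 (9.72%) held it: Ctss, C1qc, Ctsc, Cd53, Pld4, Slco2b1 and Cyth4. Of all 27025 genes with an entry 3.69% held it, and of those with a mean of at least 10 CPM 4.19%. The sequences, 5′ to 3′ on the gene's strand with the match in capitals, are shown because they belong to the protease ranked 3, the C1q gene with a match and the granule protease activator Ctsc (1356 ± 164 CPM). Ctss was taken by the rule, and C1qc and Ctsc were added after the values were seen because their match lies wholly before the start. A match is a description of letters, not of binding. In Ctss (chr3:95526536-95526791, plus strand) the match begins 2 bases before the start and runs 6 bases past it. In C1qc (chr4:136892915-136893164, minus strand) it begins 195 bases before the start, and in Ctsc (chr7:88277835-88278084, plus strand) 151 bases before it.
Ctss: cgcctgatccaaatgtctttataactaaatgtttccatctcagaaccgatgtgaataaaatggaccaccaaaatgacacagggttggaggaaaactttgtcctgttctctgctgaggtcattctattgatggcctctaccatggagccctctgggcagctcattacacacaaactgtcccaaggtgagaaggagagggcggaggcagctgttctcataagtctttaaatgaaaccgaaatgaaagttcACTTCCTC
C1qc: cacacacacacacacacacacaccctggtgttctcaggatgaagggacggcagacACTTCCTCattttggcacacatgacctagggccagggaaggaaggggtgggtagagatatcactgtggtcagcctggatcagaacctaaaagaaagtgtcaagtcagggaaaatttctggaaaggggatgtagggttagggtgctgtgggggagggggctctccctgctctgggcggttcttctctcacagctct
Ctsc: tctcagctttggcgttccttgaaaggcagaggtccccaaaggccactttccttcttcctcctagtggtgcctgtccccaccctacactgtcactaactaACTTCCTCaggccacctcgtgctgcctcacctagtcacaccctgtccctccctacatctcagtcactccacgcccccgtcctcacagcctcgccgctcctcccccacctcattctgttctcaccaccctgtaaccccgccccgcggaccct

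Homeostatic genes as a group held 14.1% of the scaled counts. A large part of this was Cst3, with 4.43% of the counts by itself. All 22 members of the list had a mean above 100 CPM and 18 a mean above 1000 CPM. The sum of the list was lowest in Saline 8 (125864 CPM) and highest in Saline 2 (151888 CPM), closely followed by Saline 6 (151870 CPM). Its CV was 6.79%. For the sum of the 4 fixed markers alone the CV was 11.4% and the range 1.32-fold. Beside the 4 markers, the ADP receptor P2ry13 (3238 ± 366 CPM) and the Fc receptor-like gene Fcrls (3078 ± 193 CPM, CV 6.26%) were high, as was the lysophospholipid receptor Gpr34 (3049 ± 361 CPM). The most variable member was Tmem119. Of the 22, 5 lay among the 10% of genes with the lowest CV and 0 among the 10% with the highest, which hold 9.99% and 10.0% of the 7618 genes. Over all genes the median CV was 19.2% at 10 to 30 CPM, 8.39% at 300 to 1000 CPM and 9.69% at 1000 CPM or more. This list is an abundant one, and the median CV of its members was 10.1%.

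Transcription factors of microglia covered a wide range. The list of 30 factors had 29 with a mean of at least 10 CPM and 0 in the highest 10% of CV. The AP-1 genes Jun (5396 ± 520 CPM) and Fos (4949 ± 580 CPM) were highest, then Egr1 (3326 ± 574 CPM) and Junb (2723 ± 390 CPM). Of the lineage factors, Mef2c had 853 ± 54.6 CPM and Irf8 615 ± 58.7 CPM. Sall1, a zinc-finger factor that in the brain marks microglia among macrophages, was lower but even, with 156 CPM in Saline 5, a median of 164 and 188 CPM in Saline 4. Per length it stood at 65.8 TPM, below Spi1 at 452 TPM and Irf8 at 438 TPM.

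Lysosomal genes held 13.6% of the scaled counts, and Cst3 and Ctss are on both lists. Of 33 members, 16 had a mean above 1000 CPM. Their sum was lowest in Saline 8 (120588 CPM) and highest in Saline 6 (148851 CPM), and 21 members were at their highest in Saline 6. The glycoprotein Lamp1 went the other way: it had 717 CPM in Saline 6, a median of 1084 and 1228 CPM in Saline 2. Gaa, the acid glucosidase, varied most among the members of at least 10 CPM, with a CV of 24.2%.

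Complement expression was uneven along the cascade. C1qa, C1qb and C1qc, which make the recognition unit of the classical pathway, were joined by the integrin Itgam (877 ± 81.6 CPM) and the anaphylatoxin receptor C3ar1 (731 ± 80.6 CPM). C3ar1 was lowest in Saline 8, at 553 CPM against 708 CPM in the next library. Cfp, properdin, was the most variable member with a mean of at least 10 CPM, from 8.30 CPM (Saline 8) to 28.3 CPM (Saline 6). The central component C3 itself had a mean of 1.04 CPM, named here after its value was seen, and Cfd was at 0 in all 8.

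Receptors for phagocytosis and pattern recognition were present in every library. Fcgr3, Gpr34, Trem2 and Fcer1g led the first list, followed by the inhibitory receptor Sirpa (1282 ± 228 CPM) and the lysosomal glycoprotein Cd68 (1228 ± 114 CPM). Fcer1g had a CV of 4.51%, while the low-level Fcgr4 had 33.3%, with 25.2 CPM in Saline 6 and 15.9 CPM in the next library. Among 27 pattern recognition genes, 25 had a mean of at least 1 CPM. The endotoxin co-receptor Cd14 (1126 ± 163 CPM) and Ly86 (1068 ± 102 CPM) were the most abundant. Of the Toll-like receptors Tlr13, which senses bacterial RNA, had 363 CPM in Saline 8, a median of 415 and 573 CPM in Saline 6. Tlr7, for single-stranded RNA, had 237 CPM in Saline 3, a median of 279 and 392 CPM in Saline 6. In both, Saline 6 stood above the other 7 libraries, and without it their ranges ended at 445 CPM for Tlr13 and 290 CPM for Tlr7.

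Cytokine and growth factor receptors beside Csf1r and Cx3cr1 included Tgfbr1 (2429 ± 180 CPM), through which TGF-beta maintains microglial identity, and the interferon-gamma receptor Ifngr1 (1380 ± 181 CPM). Ifngr2 was among the steadier genes, with a CV of 4.44%. All 24 listed receptors had counts in all 8 libraries. Il4ra had a CV of 31.2%, and Ccr2, the chemokine receptor of monocytes, one of 85.8%.

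Immediate early genes, which are switched on within minutes by many stimuli including tissue handling, held 4.27% of the scaled counts. Of 30 members 11 had a mean above 1000 CPM, and their sum ran from 36167 CPM in Saline 8 to 48374 CPM in Saline 5 with a CV of 9.94%. Zfp36, which degrades inflammatory mRNAs, had 6106 ± 552 CPM, the phosphatase Dusp1 5386 ± 555 CPM and Btg2 4188 ± 658 CPM. Atf3 varied more, with 1082 CPM in Saline 8, a median of 1371 and 2032 CPM in Saline 1. The most variable were Gadd45b (CV 32.7%), Egr3 (28.1%) and Fosl2 (27.3%). These 3 are the members in the highest 10% of CV, or 3 of 25 with a mean of at least 10 CPM, close to the 10.0% of all genes. Npas4, an activity-regulated factor of neurons, was at 0 in all 8 libraries. Whether the levels arose in the animal or during isolation was not tested.

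Cytokine and NF-kB feedback genes were present with them. Il1a ranged from 700 CPM (Saline 8) through a median of 962 to 1449 CPM (Saline 1). The feedback inhibitor Nfkbia had 2442 ± 284 CPM, the costimulatory molecule Cd83 2773 ± 575 CPM and Nfkbiz 743 ± 168 CPM. Saline 8 was lowest for Zfp36, Cd83, Ccl4, Il1a and Nfkbiz. Il1b was far lower than Il1a per length, at 76.5 against 1095 TPM, and varied with a CV of 28.9%. Ptgs2, the inducible cyclooxygenase, had 19.6 CPM in Saline 3, a median of 32.8 and 76.2 CPM in Saline 5, and the chemokine Ccl7 reached 54.6 CPM in Saline 6. Chaperones were also abundant. Hspa5, of the endoplasmic reticulum, had 2224 ± 232 CPM, the constitutive Hspa8 1855 ± 198 CPM, and the inducible Hspa1a 274 CPM in Saline 8, a median of 391 and 576 CPM in Saline 7. Hspa1a and Hspa1b are nearly identical in sequence, so their split is uncertain.

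Genes of the disease-associated state divided. Those also used at rest were high, such as Ctsd, Ctsb and Ftl1, and the lipid carrier Apoe had 1240 CPM in Saline 2, a median of 1452 and 1891 CPM in Saline 5. Of the 27 members 14 had a mean above 100 CPM. Lyz2, a lysozyme of myeloid cells at large, had 318 CPM in Saline 8, a median of 450 and 860 CPM in Saline 6, with 471 CPM in the next library. In Saline 1, 2, 3, 4 and 7 it ran from 419 to 471 CPM. Clec7a and Lgals3, which rise in that state, had means of 25.4 and 13.7 CPM, and both were highest in Saline 6.

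Receptors for neuromodulators are of interest in a study of a drug that releases dopamine and noradrenaline. Of the 31 listed, 13 had a mean of at least 1 CPM and 8 one of at least 10 CPM. In bulk RNA, fewer cells of a type and less RNA per cell cannot be told apart. Nr3c1, the glucocorticoid receptor, had 187 CPM in Saline 6, a median of 216 and 222 CPM in Saline 7. Tmem97, the sigma-2 receptor, had 17.3 ± 2.62 CPM, the cannabinoid receptor Cnr2 19.7 ± 5.28 CPM and Igf1r 25.9 ± 7.45 CPM. Per length these 4 stood at 66.3, 25.6, 10.3 and 4.65 TPM. The other members of at least 10 CPM are not reported here.

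Dopamine receptors were low. Drd1 and Drd2, named after their values were seen, had means of 0.493 and 0.367 CPM, with counts in 6 and 7 of 8 libraries and highest values of 1.95 CPM (Saline 8) and 1.21 CPM (Saline 5). These are the libraries with the highest sums of striatal projection neuron markers (182 and 165 CPM), a list that holds both genes, and of general neuronal markers (149 and 117 CPM). Drd1 was at 0 in Saline 5 and 6 and Drd2 in Saline 6, where the projection neuron sum was lowest (85.4 CPM), and the part of neurons in these counts was not tested. Drd3, Drd4, Drd5, the trace amine receptor Taar1, Htr7 and Gabbr2 were at 0 in all 8. A count of 0 allows up to 3 counts, which is 0.0354 to 0.0542 CPM per library, and covers counting error only. Purinergic genes were abundant by contrast. P2ry12 and P2ry13 were followed by the ectonucleotidase Entpd1 (1311 ± 159 CPM), P2ry6 (255 ± 28.6 CPM), P2rx7 (176 ± 16.9 CPM) and the adenosine receptor Adora3 (158 ± 26.4 CPM). Their CVs lay between 9.61% and 16.7%.

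**Figure D2:**
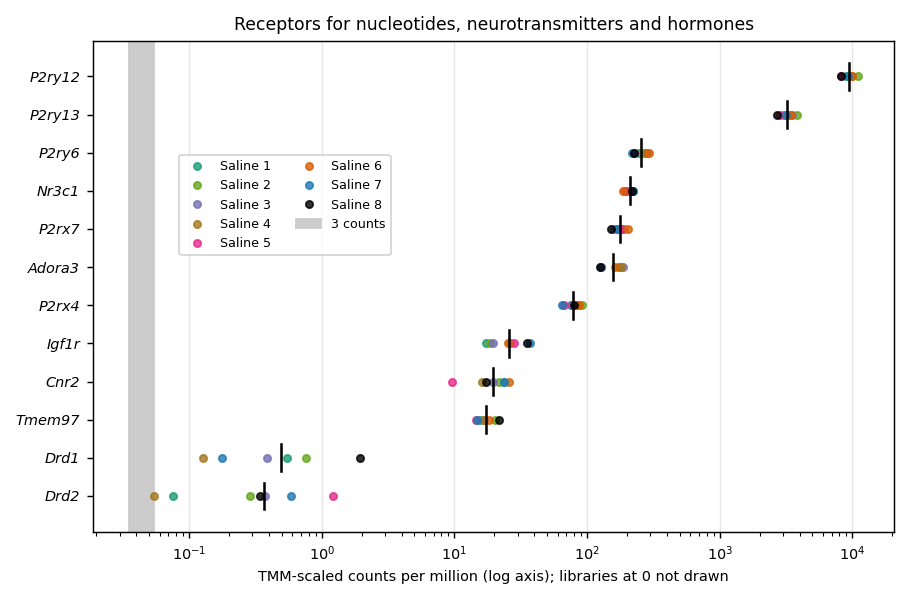
Rows are receptors, the log axis gives TMM-scaled CPM, points are the 8 Saline libraries (those at 0 are not drawn), black bars are means and the grey band is the level of 3 counts. P2ry12 lies at 8149 to 11033 CPM, whereas Drd1 and Drd2 stay below 2 CPM.

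Genes of basic metabolism differed in their spread. Cytosolic ribosomal protein genes (83 with a mean of at least 10 CPM) had a median CV of 8.37%, and 23 lay in the lowest 10% and 0 in the highest. Their sum was 1.93% of the scaled counts, lowest in Saline 5 (17162 CPM) and highest in Saline 1 (21384 CPM). The glycolytic list summed to 6144 ± 207 CPM, a CV of 3.36%, but its members differed: of 20 with a mean of at least 10 CPM, 4 lay in the lowest 10% of CV and 5 in the highest. Ldhb had a CV of 3.25% and Aldoa of 3.33%, whereas Aldoc, an isoform of astrocytes, had 63.4%, Slc2a3, a glucose transporter that neutrophils also carry, 62.6% and Slc16a3 37.7%. Aldoc ranged from 32.2 CPM (Saline 6) to 190 CPM (Saline 8), and Slc2a3 from 6.26 CPM (Saline 3) to 36.2 CPM (Saline 6).

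Mitochondrially encoded genes held 0.821% (Saline 6) to 1.32% (Saline 7) of the counts. CYTB, of complex III, had 4061 CPM in Saline 1, a median of 4630 and 6699 CPM in Saline 7. The complex IV subunit COX1 had 1647 ± 276 CPM and the complex I subunit ND1 1443 ± 205 CPM, both highest in Saline 7. The 7 genes of this list with a mean of at least 10 CPM had a median CV of 17.4%. The genes of this one genome were counted very unequally: per length CYTB stood at 8997 TPM, COX1 at 2174 TPM and COX2, COX3 and ATP6, named after their values were seen, at 7.28, 7.22 and 21.5 TPM. How reads shared with other copies were counted is not given in the sources used here, and its part in this was not tested.

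Of 25 classic reference genes, 9 lay in the lowest 10% of CV and 0 in the highest. Sdha had a CV of 4.58%, Ywhaz 5.52%, Hprt 5.67%, Ppia 6.64% and Gapdh 7.79%. Actb was less even, with 5611 CPM in Saline 6, a median of 7618 and 9624 CPM in Saline 7, a CV of 18.3%. Tfrc (23.4%) varied more. Gapdh was modest in level, 245 ± 19.1 CPM or 351 TPM against 8101 TPM for Actb.

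Spread between libraries was moderate for most genes. Over the 7618 genes the median CV was 13.9%, with 10% of genes below 7.04% and 10% above 27.1%. A CV over 50% was found for 171 genes (2.24%) and one under 10% for 2065 genes (27.1%). Counting error alone would give a median CV of 2.84% for genes of 10 to 30 CPM and 0.290% at 1000 CPM or more. For most of these genes nearly all of the measured spread lay beyond this error, which covers the counting of reads only and not the steps before sequencing. Counting error was a larger part for the 15 stable genes described next, whose CVs were 3.12% or less. At 100 to 300 CPM, where most of them lie, its median was 0.973%. The common biological CV from edgeR was 38.3% over the 12278 genes of at least 1 CPM. With Saline 1, 2, 3, 4 and 7 alone it was 29.8%, and 42 genes had a CV over 50%.

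**Figure D3:**
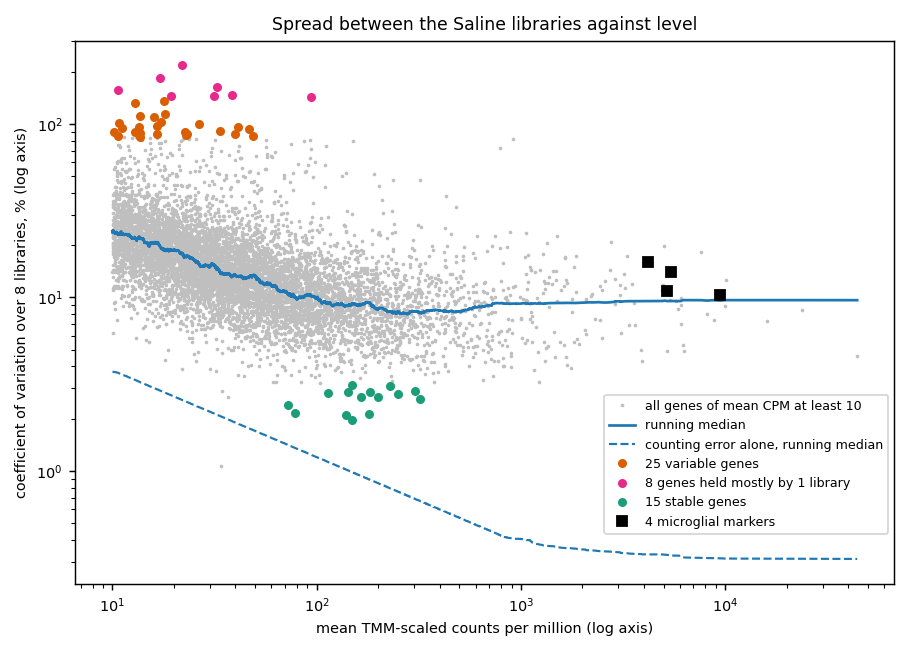
The horizontal log axis gives the mean TMM-scaled CPM of each of 7618 genes and the vertical log axis its CV over the 8 Saline libraries in percent, with running medians of the CV (solid) and of counting error alone (dashed). The 15 stable genes lie at CVs up to 3.12%, the 25 variable genes at 84.3% or more at low levels, and the 4 microglial markers between 10.3% and 16.1%.

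The 15 most stable genes at a mean of at least 50 CPM were picked for their CV, which is thus a description. They had CVs of 1.95% to 3.12%, and the next genes follow without a gap. Dad1, a subunit of the oligosaccharyl transferase, had 146 CPM in Saline 3, a median of 149 and 153 CPM in Saline 8. Elavl1 (165 ± 4.38 CPM) encodes an RNA-binding protein. Morf4l1 (320 ± 8.32 CPM), Rbbp7 (150 ± 4.66 CPM), the histone variant H2afz (250 ± 6.92 CPM) and Zmiz1 (77.9 ± 1.68 CPM) act in chromatin or transcription. Pomp (proteasome maturation), Anapc5 (anaphase-promoting complex), Dcaf8 (ubiquitin ligase receptor), Vps28 (endosomal sorting), the kinase subunit Csnk2a1 and the dioxygenase Phyhd1 are also among them. In each, the highest of the 8 libraries held between 12.8% and 13.1% of the summed CPM, where an even split gives 12.5%. None of the 15 belongs to the classic reference list. Their exact order rests on small differences: with library totals in place of TMM factors 3 of the 15 were again chosen, though all 15 stayed in the lowest 10% of CV.

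Variable genes were drawn at a mean of at least 10 CPM as separate sets, with predicted and clone symbols left out. The first holds 8 genes with at least 50% of their summed CPM in a single library, and their CVs were 142% to 217%. The second holds the 25 genes of highest CV among the rest, from 84.3% to 135%. The 25 were picked for this, so their spread is a description, and none of them belongs to the homeostatic list. Of the 25, 6 are on the oligodendrocyte list and 1 on the neutrophil list. With the genes of a single library kept in the choice, 17 of the 25 were chosen again, and 5 were on the oligodendrocyte and 7 on the neutrophil list. Mog, a myelin surface protein, had 11.1 CPM in Saline 6, a median of 34.8 and 152 CPM in Saline 8. Cldn11, the myelin tight junction protein, had 17.6 CPM in Saline 6, a median of 26.9 and 137 CPM in Saline 8. Opalin, Tspan2, Ugt8a, Ermn, Omg, Tmem88b and Cmtm5 had the same highest library, with CVs of 86.8% to 102%, and all of them but Tmem88b the same lowest one, Saline 6. Tmem88b was lowest in Saline 1 (10.4 CPM). In Saline 1, 2, 3, 4 and 7 alone the range was 1.46-fold for Cldn11, 1.87-fold for Ermn and 1.85-fold for Cmtm5.

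Genes of neural cells of other kinds moved with them. Sox11, a factor of immature neurons, had 3.61 CPM in Saline 7, a median of 6.45 and 69.5 CPM in Saline 8, with 39.9 CPM in the next library. Ccnd2, a cyclin, had 9.45 CPM in Saline 2 and 94.6 CPM in Saline 8. Gja1, the gap junction protein of astrocytes, ranged from 11.2 CPM (Saline 6) to 141 CPM (Saline 8). The adhesion molecules Ncam1, Ptprd, Lrrn1 and Edil3 and the transmembrane protein Tmeff2 were also highest in Saline 8. In all, 17 of the 25 were highest there and 13 were lowest in Saline 6. With the genes of a single library kept in the choice, 13 of 25 were highest in Saline 8 and 10 in Saline 6, and 9 were lowest in Saline 6. In Saline 1, 2, 3, 4 and 7 alone the range was 2.19-fold for Gja1, 2.82-fold for Ccnd2 and 4.83-fold for Edil3.

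Another 7 of the 25 were highest in Saline 6 and belong mostly to blood myeloid cells. Ccr2 had 4.05 CPM in Saline 8, a median of 16.3 and 69.2 CPM in Saline 6. Lgals3, Anxa1 and the protease inhibitor Slpi had 43.4, 57.8 and 50.3 CPM in Saline 6 and 13.1, 19.0 and 13.5 CPM in the next library. Cyp4f18, Cd300lb and the dendritic lectin Cd209a did the same at 55.1, 31.6 and 40.3 CPM. In Saline 1, 2, 3, 4 and 7 alone the range was 1.55-fold for Ccr2, 1.73-fold for Lgals3 and 17.5-fold for Cd209a. The last of the 25, Ngp, a neutrophil granule protein, was highest in Saline 5 (49.9 CPM) and at 0 in Saline 7.

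The 8 genes set apart above (0.105% of the 7618) had at least 50% of their summed CPM in a single library. S100a8, a subunit of the alarmin calprotectin, had 19.3 CPM in Saline 3, a median of 50.6 and 417 CPM in Saline 6, where the next library had 86.5 CPM. S100a9 (176 CPM), Retnlg (162 CPM), Lrg1 (137 CPM), Mmp8 (94.4 CPM), Hp (87.4 CPM) and the chemokine receptor Cxcr2 (51.1 CPM) were likewise highest in Saline 6. Mpo, the myeloperoxidase of early granulocytes, had 137 CPM in Saline 5 and 24.2 CPM in the next library, and was at 0 in Saline 7. Without Saline 6, 4 genes met this condition, and with Saline 1, 2, 3, 4 and 7 alone 3 did.

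**Figure D4:**
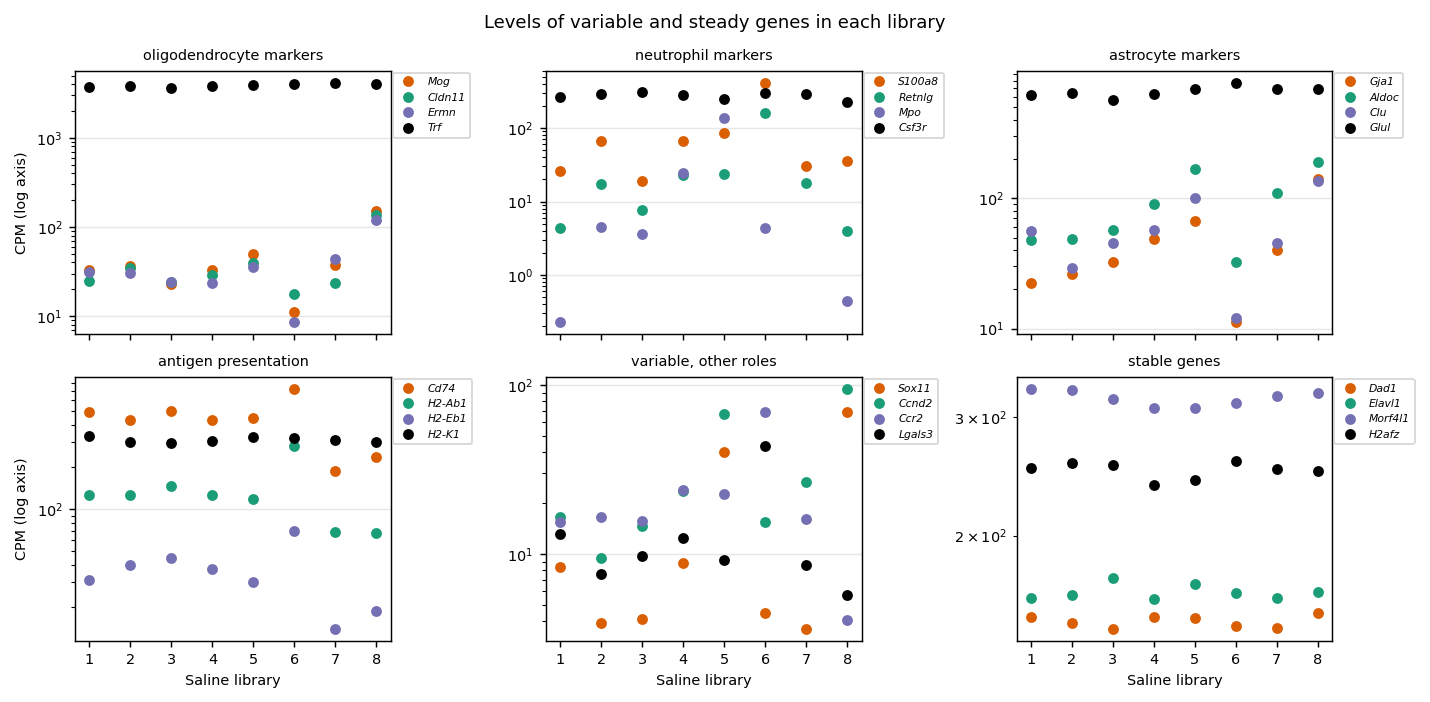
Each panel shows 4 genes in the 8 Saline libraries (horizontal axis) as TMM-scaled CPM on a log axis, and values of 0 are not drawn. Mog, Cldn11 and Ermn are highest in Saline 8, S100a8 and Retnlg in Saline 6 and Mpo in Saline 5, while Trf, Csf3r, Glul and the stable genes keep their level.

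These genes are read best beside the whole marker lists. The 21 oligodendrocyte markers all had a mean of at least 1 CPM, and their sum ranged from 4820 CPM (Saline 6) through a median of 5767 to 10468 CPM (Saline 8), a 2.17-fold range that was 1.46-fold in Saline 1, 2, 3, 4 and 7. Trf alone held 58.5% of the mean sum. Without it the sum ranged from 765 CPM (Saline 6) to 6405 CPM (Saline 8), 8.37-fold, and 2.20-fold in Saline 1, 2, 3, 4 and 7. Of the 19 with a mean of at least 10 CPM, 18 lay in the highest 10% of CV. Mbp was highest in Saline 7 instead, with 126 CPM in Saline 6 and 1658 CPM in Saline 7. Trf was the exception with a CV of 4.97%: it is a marker on this list, yet it kept its level across the libraries in which Mog differed 13.6-fold.

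Astrocyte markers divided in the same way. Their sum went from 1141 CPM (Saline 3) to 1875 CPM (Saline 8), a 1.64-fold range that was 1.24-fold in Saline 1, 2, 3, 4 and 7. Glul, which makes glutamine, and the glutamate transporter Slc1a3 had CVs of 9.35% and 14.4%, both were highest in Saline 6, and together they held 71.4% of the mean sum. Without them it ranged from 110 CPM (Saline 6) to 844 CPM (Saline 8), 7.71-fold, and 1.79-fold in Saline 1, 2, 3, 4 and 7. Aldoc, Atp1b2, Clu, Gja1 and Slc1a2 had CVs of 58.8% to 84.6%, and these 5 were lowest in Saline 6 and highest in Saline 8. Saline 8 was also highest in the sums for endothelial cells (2722 CPM against a median of 1909), pericytes and smooth muscle (994 against 447 CPM), oligodendrocyte precursors (107 against 36.8 CPM), general neurons (149 against 65.4 CPM), striatal projection neurons (182 against 105 CPM) and choroid plexus and ependyma (293 against 86.2 CPM). In Saline 1, 2, 3, 4 and 7 the range was 1.51-fold for the endothelial and 2.1-fold for the pericyte sum, and the choroid plexus sum ran from 70.9 to 99.3 CPM. In the same library the homeostatic, lysosomal, complement, cytokine and immediate early gene sums were at their lowest. The part of these other cells in the levels of microglial genes was not tested.

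Neutrophil markers summed to 331 CPM in Saline 1, a median of 429 and 1330 CPM in Saline 6, a 4.01-fold range that was 2.24-fold without Saline 6. The list was split: of 9 members with a mean of at least 10 CPM, 6 were highest in Saline 6 and 2 in Saline 5. Mpo and Ngp had 137 and 49.9 CPM in Saline 5 but 4.31 and 5.75 CPM in Saline 6. As a mean of log2 values over its members, the list was highest in Saline 5 (4.07), then in Saline 6 (3.83). Csf3r, a receptor of neutrophils, was steady, with 224 CPM in Saline 8, a median of 283 and 306 CPM in Saline 3, and held 49.1% of the mean sum. Without Csf3r the sum ranged from 61.6 CPM (Saline 3) to 1032 CPM (Saline 6), 16.8-fold, and 3.46-fold in Saline 1, 2, 3, 4 and 7. Monocyte markers (697 to 1210 CPM) and border-associated macrophage markers (338 to 609 CPM) were highest in Saline 6 as well, and ended at 1106 and 499 CPM without it. The monocyte sum was mostly Nr4a1 (821 ± 130 CPM), which the immediate early list holds too, and the other markers ranged from 62.7 CPM (Saline 8) to 385 CPM (Saline 6). Among border-associated macrophage markers Mrc1 had 48.2 CPM in Saline 8, a median of 64.0 and 99.9 CPM in Saline 6, and F13a1 66.8 CPM in Saline 3 and 162 CPM in Saline 6. Lymphocyte markers were near 0 apart from Cd79b, a B-cell receptor subunit that had 50.5 ± 4.55 CPM with a CV of 9.00%. Cd3e and Cd8a were at 0 in all 8, and 6 of the 24 markers are not in the table. Haemoglobin genes varied more than 2-fold. Hbb-bs ranged from 72.0 CPM (Saline 1) to 296 CPM (Saline 3), and Hba-a1 and Hba-a2, near-identical copies whose split is uncertain, were both lowest in Saline 7 and highest in Saline 5.

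**Figure D5:**
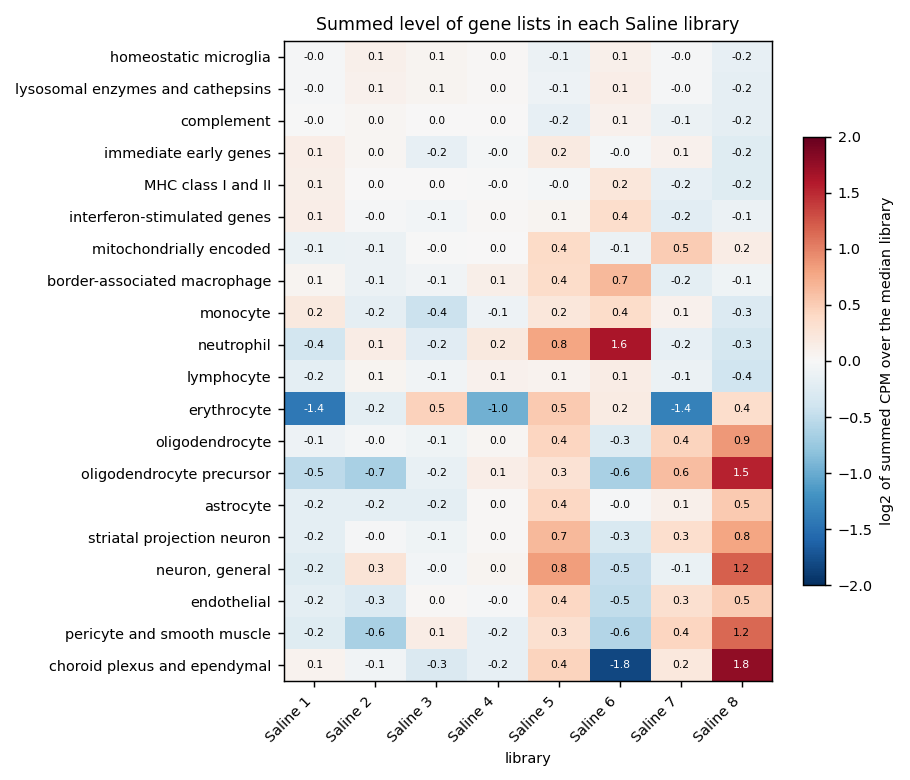
Rows are gene lists and columns the 8 Saline libraries, and each cell gives the log2 ratio of the list's summed CPM to its median over the libraries. Saline 8 is highest for myelin, vascular and neural lists, Saline 6 for neutrophil, monocyte and border-associated macrophage lists, while the homeostatic row stays within a 1.21-fold range.

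Antigen presentation genes differed in their spread. Of class I, H2-K1 had 314 ± 12.9 CPM (CV 4.10%) and B2m a CV of 6.97%. H2-D1 varied more, from 1025 CPM (Saline 8) to 1565 CPM (Saline 6), a CV of 14.4%. Class II genes had a wider range. Cd74, the invariant chain, had 189 CPM in Saline 7, a median of 440 and 722 CPM in Saline 6. H2-Ab1 had 67.2 CPM in Saline 8, a median of 126 and 281 CPM in Saline 6, H2-Aa 25.5 CPM in Saline 7 and 106 CPM in Saline 6, and H2-Eb1 14.0 CPM in Saline 7 and 70.2 CPM in Saline 6. Without Saline 6 the highest values were 501 CPM for Cd74, 147 CPM for H2-Ab1, 47.0 CPM for H2-Aa and 44.9 CPM for H2-Eb1. These 4 are the list's only members in the highest 10% of CV, out of 18 with a mean of at least 10 CPM. The border-associated macrophage, monocyte and neutrophil sums were also highest in Saline 6, and the part of these cells in the class II values was not tested. Cybb, the catalytic subunit of the phagocyte oxidase, showed 20.0 CPM in Saline 8, a median of 34.9 and 73.5 CPM in Saline 6, whereas its partner Cyba had a CV of 10.3%.

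Whether the same genes vary in libraries that had no part in the choice was read in the other groups. Within Maintenance, 22 of the 25 variable genes had a mean of at least 10 CPM and 22 of these 22 lay in the highest 10% of CV, which holds 10.0% of the 7401 genes that pass in both groups. Without Maintenance 8, 18 of 22 did. Within Abstinence 19 passed the filter and 18 of them lay in the highest 10% of the 7443 genes (10.0%). The exception was Ugt8a, at percentile 85.0. Genes not tested there had means below 10 CPM, among them Ngp, Anxa1 and Cd300lb in both groups. In Saline, Ngp, Anxa1 and Cd300lb reach a mean of 10 CPM only through their highest library. Low genes have larger CVs, and relative to genes of like level 20 of 22 and 17 of 19 lay in the highest 10%. With a mean of at least 1 CPM the highest 10% fills with low genes and 3 of 25 and 4 of 24 fell into it.

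Of the 8 genes held by 1 library, 5 were tested in Maintenance and 3 in Abstinence, and all of these lay in the highest 10%. Mpo, Mmp8 and Cxcr2, tested in neither group, reach a mean of 10 CPM in Saline only through their highest library. With a mean of at least 1 CPM, 7 of the 8 were tested in each group, and 1 and 6 lay in the highest 10%. S100a8 had a CV of 68.2% in Maintenance and 78.8% in Abstinence. Mpo was at 0 in all 15 of these libraries. Taking all Saline genes of the highest 10%, 42.5% lay in that of Maintenance and 47.8% in that of Abstinence. The stable genes carried over less. Of the 15, 5 (33.3%) lay in the lowest 10% in Maintenance and 4 (26.7%) in Abstinence, against 10.0%, and 0 in the highest. Morf4l1 was in it in both groups, with CVs of 6.21% and 2.46%. Dad1, the steadiest in Saline, had a CV of 24.5% in Maintenance and 5.20% in Abstinence. Relative to genes of like level, the counts of stable genes were 1 and 2 of 15.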

How the data were processed

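The authors deposited a table of raw read counts per gene for 23 RNA-seq libraries. Per the labels' protocols, RNA input was normalized and libraries were made with a NEBNext Single Cell/Low Input kit. The submitters' processing notes name STAR 2.7.10a, StringTie 2.1.5, cutadapt 1.18, Trim Galore 0.6.7 and the build mm10/GRCm38 beside DESeq2 1.38.3. Strandedness is not given in the sources used here, so overlapping genes cannot be told apart. A second deposited table holds 17 of the libraries, and its counts were identical.

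From the counts, TMM factors were computed within Saline (edgeR 4.0.16, R 4.3.3) and counts were divided by scaled totals to give CPM. CVs were read for genes with a mean of at least 10 CPM. TPM used the longest GENCODE M21 transcript. No p-value was computed, since 1 group has no contrast. The calculation of CVs was tested on simulated data. Intervals and floors cover counting error only. DESeq2 1.42.0 size factors, library totals, other minimum levels, other measures of spread and leaving out each library were tried. Keeping only Saline 1, 2, 3, 4 and 7 was added after seeing the data, as were marker sums without their most abundant steady genes and a choice of variable genes that keeps those of 1 library.

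The members, gene lists and rules were chosen with earlier results of these data known. Genes were named by rule: the 30 most abundant by CPM and by TPM, the 15 of lowest CV at 50 CPM or more, genes at 10 CPM or more with at least 50% of their CPM in 1 library, the 25 of highest CV among the other genes at 10 CPM or more, and in each list up to 6 of highest level and 3 of highest CV, with its members at 0. Apoe, Atf3, Fcrls, Irf8, Sall1, Spi1, C3, COX2, COX3, ATP6, Drd1, Drd2 and the promoter genes beyond Ctss were named after their values were seen. Some genes that the rule takes are not reported here.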

Additional observations from a re-analysis of the deposited data

Results flagged for a closer look

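A library stood far from the other 7 for 44 of 191 genes named in the text that had counts in all libraries, where chance alone marks about 1 in 20 groups. Over all 7615 genes with a mean of at least 10 CPM and counts in every library the share was 8.26%. Of these genes, Saline 5, 6, 7 and 8 stood far above for 88, 119, 102 and 102, and far below for 52, 17, 55 and 46. Saline 1 to 4 stood far above for 4 to 13 genes and far below for 1 to 5. Many of the named genes were picked for their spread, so their share is a description. In each sentence the value is the CPM of the far library, with that of the nearest other library in brackets.

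Saline 8 stood above the rest for myelin and oligodendrocyte genes. The levels were Cldn11 137 (39.3), Cmtm5 48.8 (23.6), Ermn 121 (43.7), Mog 152 (49.1) and Omg 40.1 (15.7) CPM. The levels were Opalin 59.9 (15.0), Tmem88b 71.6 (21.4), Tspan2 89.8 (30.0) and Ugt8a 44.5 (14.9) CPM. The other neural genes, most of them for adhesion or junctions, had the same far library. Their levels were Edil3 31.2 (13.6), Gja1 141 (67.1), Lrrn1 36.0 (12.4), Ncam1 69.3 (29.8), Ptprd 35.3 (15.5) and Tmeff2 68.4 (19.4) CPM. Among the named genes Saline 8 stood below the rest only for C3ar1, at 553 CPM (708), and among all 7615 genes for 46.

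Saline 6 stood above the rest for several genes of neutrophils and acute inflammation, though not for Mpo and Ngp. It held Anxa1 57.8 (19.0), Cxcr2 51.1 (9.82), Hp 87.4 (18.9) and Lrg1 137 (51.7) CPM. It held Mmp8 94.4 (13.8), Retnlg 162 (23.4), S100a8 417 (86.5), S100a9 176 (37.5) and Slpi 50.3 (13.5) CPM. Genes of antigen presentation, macrophages and pattern recognition followed, with the glycolytic Aldoa and Slc2a3. Their levels were Aldoa 700.01 (655), Ccr2 69.2 (23.8), Cd209a 40.3 (15.5), Cd300lb 31.6 (13.6) and Cybb 73.5 (41.8) CPM. Their levels were Cyp4f18 55.1 (16.8), Fcgr4 25.2 (15.9), H2-Aa 106 (47.0), H2-Ab1 281 (147) and Lgals3 43.4 (13.1) CPM. Their levels were Lyz2 860 (471), Mrc1 99.9 (67.8), Slc2a3 36.2 (17.1), Tlr13 573 (445) and Tlr7 392 (290) CPM. Fkbp5 was far above in Saline 6, at 125 CPM (62.0). Ptgs2 and Errfi1 were so in Saline 5, at 76.2 CPM (44.9) and 99.7 CPM (68.0), and Tfrc in Saline 7, at 43.1 CPM (31.0).

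Among 41 list sums 4 had a far library. The choroid plexus and ependymal sum was 293 CPM in Saline 8 (117), the oligodendrocyte precursor sum 107 CPM (56.6) and the pericyte and smooth muscle sum 994 CPM (601) in the same library. The neutrophil sum was 1330 CPM in Saline 6 (743). Of 9 library measures, depth and gene number among them, 0 had one. The part of other cell types in these values was not tested.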

How the results depend on the processing

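All 360 mean levels of single genes under other settings moved by less than 1 SD. With libraries left out a mean cannot move that far, so only the other scaling factors put this to a test. Of 123 other values with all libraries of a setting kept, 93 stayed the same, and of 152 with 1 Saline library left out 140 did. The same means within 1.5 times, or within 1 SD for the measures of how concentrated the counts were. With 1 library left out these measures could not move by 1 SD. No paired analysis was possible because the values describe 1 group and come from no test. Which genes were chosen depended most on the setting. Of the 25 variable genes, 2 were chosen again at a minimum of 1 CPM, 0 at 100 CPM, 11 by the SD of log2 CPM, 3 by interquartile range over median and 9 by CV relative to genes of like level. Of the 15 stable genes, 3 were chosen again with library totals and 1 by interquartile range. Genes held mostly by 1 library numbered 74 at 1 CPM and 0 at 100 CPM, where the median CV was 8.93%. With only Saline 1, 2, 3, 4 and 7, 42 genes had a CV over 50%, 3 were held mostly by 1 library, 0 of the variable and 1 of the stable genes were chosen again, 8 of 25 variable genes lay in the highest 10%, and the fold range was 1.49 for neutrophil and 2.1 for pericyte markers. Leaving out 1 library gave 94 (without Saline 8) to 201 genes with a CV over 50%, 4 (without Saline 6) to 13 (without Saline 2 or 4) genes held by 1 library, 8 (without Saline 8) to 22 variable genes chosen again (16 without Saline 6), and 6 (without Saline 7) to 12 stable genes (9 without Saline 4 or 5, 8 without Saline 8). The neutrophil fold range was 2.24 (without Saline 6) to 4.01 and the pericyte one 2.1 (without Saline 8) to 3.47. In the other groups, variable genes in the highest 10% were 12.0% and 16.7% at a minimum of 1 CPM for Maintenance and Abstinence. Saline genes of the lowest 10% that were also in it there were 16.8% and 18.01% by relative CV. For stable genes it was 20.0% without Maintenance 8, 6.67% and 13.3% by relative CV, 20.0% and 13.3% at 50 CPM, and 46.7% in Abstinence at 1 CPM. Without their most abundant steady genes, the fold ranges were 8.37 for oligodendrocyte (without Trf), 7.71 for astrocyte (without Glul and Slc1a3) and 16.8 for neutrophil markers (without Csf3r). The causes were not tested. Depth limits only the lowest genes, at 3 counts or fewer.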

Other observations

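Interferon-stimulated genes were present at low to moderate levels. Their sum was 741 CPM in Saline 7, a median of 856 and 1098 CPM in Saline 6, and 9 of the 15 members with a mean of at least 10 CPM were highest in Saline 6. Without Saline 6 the sum ended at 941 CPM. Ifitm3, a membrane protein that blocks virus entry, had 34.1 CPM in Saline 2, a median of 41.3 and 82.3 CPM in Saline 6, and Slfn2 31.9 CPM in Saline 3, a median of 40.5 and 69.4 CPM in Saline 6. The antiviral membrane protein Bst2 was steadier, with a CV of 9.76%. Saline 6 is also the library with the highest neutrophil and monocyte sums, and their part in these values was not tested.

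Glucocorticoid-responsive genes did not rise and fall as 1 block. Tsc22d3, an anti-inflammatory target of the glucocorticoid receptor, had 420 CPM in Saline 3, a median of 607 and 756 CPM in Saline 6. Fkbp5, a chaperone that feeds back on the receptor, had 42.2 CPM in Saline 7, a median of 56.1 and 125 CPM in Saline 6, with 62.0 CPM in the next library, and a CV of 12.2% without Saline 6. Sgk1, a kinase, was lowest in Saline 4 (1519 CPM) and highest in Saline 1 (2198 CPM), and Errfi1, an inhibitor of growth factor receptors, was far above the rest in Saline 5, at 99.7 CPM against 68.0 CPM.

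Circadian clock genes differed between libraries collected after the same kind of session. Dbp, an output gene of the clock, had 5.69 CPM in Saline 7, a median of 11.9 and 18.7 CPM in Saline 2, a CV of 43.5%. Nr1d2, a repressor in the clock loop, had 50.2 CPM in Saline 7, a median of 96.2 and 110 CPM in Saline 5. Arntl, the activator in the opposite phase of that loop, had 5.29 CPM in Saline 6 and 16.4 CPM in Saline 7. In Saline 6 Dbp was low as well, at 6.86 CPM, and Nr1d2 had 99.7 CPM. Of 14 clock genes with a mean of at least 10 CPM, 5 lay in the highest 10% of CV. Genes of 10 to 30 CPM, such as Dbp, had a median CV of 19.2%, against 13.9% over all 7618 genes. The hour at which each library was collected is not given in the sources used here.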
